A study of Mus musculus with 9 samples.

Results

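Unchanged mESC enhancers with RARA are reporter-active regions of mouse embryonic stem cells that carry a peak of retinoic acid receptor alpha (RARA) but appear in neither list of enhancers that differed between culture conditions. They numbered 673 of the 4674 regions listed as active in the pluripotent state. Members were chosen by overlap of at least 1 bp with an RARA peak and by absence of overlap with any LIF-dependent or RA-induced region. RARA peaks and all 3 enhancer lists therefore entered the choice, and the counts, activity values and RARA enrichments of the members are given as descriptions without a test. "Unchanged" means not listed as changed. No value for retinoic acid over LIF was analysed for these regions, so a small change cannot be told apart from none.

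The study used E14 mouse embryonic stem cells, an established feeder-free line. Enhancer activity was read by FAIRE-STARR-seq, in which accessible DNA is cloned behind a minimal promoter and active fragments are transcribed as part of the reporter RNA. The plasmid library came from cells given 1 µM retinoic acid (RA) for 4 h and had 1 input sample. It was transfected in 3 biological replicates, and each reporter sample lists 4 transfections. Each replicate was divided into cells in medium with leukemia inhibitory factor (LIF) and cells in medium with 1 µM RA and no LIF. Both treatments lasted 4 h. RARA was mapped by ChIP-seq in 1 sample after 4 h of 1 µM RA, next to 1 input sample. The protocol names the reagent a polyclonal RAR antibody. Activity values of the members thus come from cells with LIF, and receptor occupancy from cells with RA. The deposited peak lists pool the replicates, so no spread between cultures could be computed, read depth is unknown, and no comparison below has a replicate check. Intervals on shares are 95% Wilson intervals, and those on medians are 95% binomial (order-statistic) intervals. Both cover counting over regions alone, and neighbouring regions are not independent.

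RARA is a nuclear receptor that binds DNA with an RXR partner at paired copies of a short motif. Without ligand the pair recruits corepressors, and RA exchanges these for coactivators. LIF keeps mouse embryonic stem cells pluripotent through STAT3, and RA drives them toward differentiation. Binding by a receptor and the activity of a fragment in a reporter are separate measurements, and bound sites are known that do not change activity with ligand.

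Receptor-bound mESC enhancers were mostly in neither list of changes, as were mESC enhancers as a whole, of which 3879 of 4674 were unchanged (83.0%, 81.9 to 84.0%). The share among bound enhancers was below this, at 77.7%, and the difference was not tested. Among all mESC enhancers 18.5% overlapped an RARA peak (866 regions), against 2.94% of all plasmid input regions. Input regions under mESC enhancers had a median fold of 12.8 and width of 505.5 bp, against 5.48 and 327 bp over all. The part of library enrichment and width in these RARA shares was not tested. Of the 866 bound enhancers, 673 were unchanged (77.7%, interval 74.8 to 80.4%), 87 overlapped an RA-induced region and 106 a LIF-dependent one. Over all mESC enhancers, bound or not, 4.17% overlapped an RA-induced region and 12.8% a LIF-dependent one. The unchanged share was lower where binding was stronger. Of the 50 bound mESC enhancers with the highest RARA fold enrichment, 24 were unchanged, 20 RA-induced and 6 LIF-dependent. Of the 200 highest, 136 were unchanged. These counts come from the lists that chose the members, and they describe how the bound enhancers divide.

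The join was one to one. Each of the 673 members overlapped 1 RARA peak and 1 plasmid input region, and no 2 members shared either. Members therefore used 673 of the 9757 RARA peaks (6.90%). Among unchanged enhancers without RARA, 3174 of 3206 lay in an input region. No member shared its RARA peak with an RA-induced region and 1 shared it with a LIF-dependent region. That member, chr18:82946235-82946584, had a score of 1.785 and lay under a peak of 1740 bp with 4 summits and 6.17-fold enrichment. The LIF-dependent region under the same peak began 343 bp beyond its end.

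RARA enrichment at the members was mostly low with a long upper tail. The fold enrichment, the authors' value at the peak summit, ran from 1.74 to 50.4 with a median of 3.32 (quartiles 2.74 and 4.70). Over all 9757 RARA peaks the median was 3.06 (quartiles 2.65 and 3.92). At the members 153 peaks reached 5-fold, 34 reached 10-fold and 5 reached 20-fold. Weak peaks took repeated values: 310 members had the same fold as at least 1 other member, and 14 shared a fold of 2.55. The 6 most frequent folds were no closer than 0.098 to each other, so ranks among weak peaks are coarse. Strong peaks were present too. Members held 15 of the 100 strongest RARA peaks of the whole list and 64 of the 500 strongest (12.8%), against 6.90% of all RARA peaks. Strong peaks were thus more frequent at members than in the whole list, and this difference was not tested. The median at RA-induced mESC enhancers with RARA was 5.53 (interval 3.98 to 7.33), and at LIF-dependent ones 3.36 (3.12 to 3.82). The members' own interval, 3.23 to 3.43, lay below the first and within the second.

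The 10 members of highest RARA enrichment ranged from 16.1 to 50.4-fold, and 7 of them lay wholly inside their RARA peak. The first, chr4:106052072-106052361, had 50.4-fold enrichment, rank 5 among all RARA peaks. It was also among the 10 members of highest activity score (4.489), with 24.1-fold reporter RNA over the plasmid input. It was the single region that stood in both the 10 highest by RARA and the 10 highest by score. The second, chr10:68496256-68496488, had 29.3-fold RARA enrichment and a score of 2.562, close to the members' median. At chr7:4772620-4772848, with 26.7-fold enrichment, the RARA summit was 4 bp from the enhancer summit. The region chr11:96051537-96051905 combined 16.7-fold enrichment with a score of 1.53, the lowest of the 10. Scores in this set ran from 1.53 to 4.489, with a median of 3.165 against 2.547 over all members. This difference rests on 10 regions and was not tested.

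Activity of the members in cells with LIF covered most of the range of the whole list, which began lower, at 0.4449. No source gives a scale for the deposited activity score or says how it was computed. Its median over members was 2.547 (interval 2.455 to 2.621), between extremes of 1.067 and 5.424. Unchanged enhancers without RARA had a median of 2.491 (2.471 to 2.52), inside the members' interval. Scores of at least 3 were held by 27.9% of members (24.7 to 31.4%) and by 22.7% of unchanged enhancers without RARA (21.3 to 24.2%). The fold over plasmid input had a median of 9.02 in members (8.68 to 9.74) and 8.40 without RARA (8.27 to 8.60). Quartiles were also higher in members, at 6.66 and 13.2 against 6.27 and 11.6. At least 20-fold was reached by 53 members (7.88%, 6.07 to 10.2%) and by 129 unbound enhancers (4.02%, 3.40 to 4.76%), and at least 30-fold by 15 and 24. No test was made of these differences, since the enhancer call itself chose the regions.

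The 10 members of highest score had RARA enrichments from 2.64 to 50.4-fold. The plasmid input regions under them had a median enrichment of 7.02-fold, against 12.2-fold under all members. The highest score of all mESC enhancers, 5.424, was at chr18:7608809-7609353, where the RARA summit lay 489 bp from the enhancer summit and the enrichment was 2.64-fold. Its plasmid input region was enriched only 4.00-fold. At chr6:139473917-139474281 the score was 4.761, the RARA fold 6.10 and the summit distance 16 bp. The next, chr13:73594118-73594811, had a score of 4.584 but a fold over input of 6.98, below the members' median. In contrast chr1:10868380-10868586, with a score of 4.541, and chr15:25261798-25262172, with 4.463, had folds over input of 38.2 and 38.9. Across the 673 members score and fold over input had a Spearman rho of 0.818. Both values come from the pooled LIF samples, and whether the plasmid input enters the score is not stated.

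**Figure D1:**
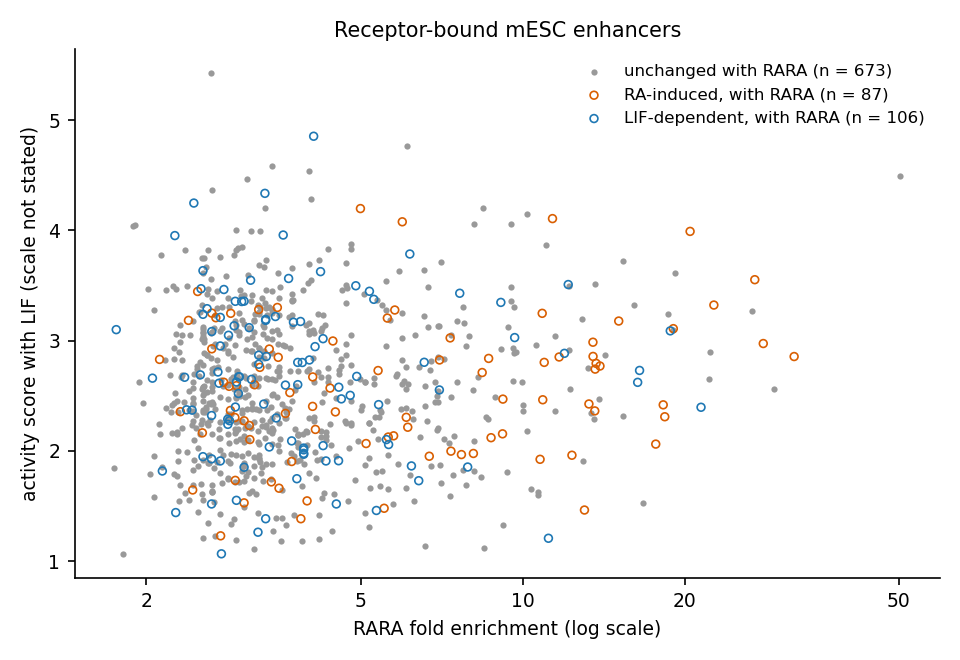
Activity score in cells with LIF (vertical) against RARA fold enrichment after RA (horizontal, log scale) for the mESC enhancers with an RARA peak; each point is a region. The 673 unchanged regions (grey) cover the whole range of scores from 1.067 to 5.424, and most lie below 5-fold enrichment.

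Receptor enrichment and enhancer activity were only weakly related among members. Members were ordered by RARA fold and split into 5 groups of 134 or 135 regions. The median score was 2.504 in the weakest group, 2.596 in the middle one and 2.623 in the strongest, with overlapping intervals. Median fold over input was 9.03, 8.74 and 9.98 in the same groups. The Spearman rho between RARA fold and score was 0.040 over 673 regions, which share their libraries. Of the 34 members with at least 10-fold RARA enrichment, 13 had a score of 3 or more (38.2%, 23.9 to 55.0%) and 5 had a score below 2 (14.7%, 6.45 to 30.1%). Over all members these shares were 27.9% and 21.2%, inside the wide intervals of the 34. The 5 included chr5:23713796-23714117, with 13.0-fold enrichment, a score of 1.907 and summits 2 bp apart. Another, chr1:121295254-121295663, had 10.7-fold enrichment, a score of 1.628 and summits 4 bp apart. These 5 were picked out after their values were seen.

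Weakly bound members also differed widely in activity. The 5 members of lowest RARA enrichment had folds of 1.74 to 1.94. Their scores went from 1.067 at chr13:66799178-66799417 to 4.047 at chr17:6495965-6496369. The region on chromosome 13 also had the highest plasmid input enrichment of all members, 35.0-fold. By the authors' q value, 76 members (11.3%) had an RARA −log10 q below 3, where the lowest in the RARA list is 2.00. For the enhancer call, where the lowest −log10 q in the mESC list is 1.38, 16 members (2.38%) had a value below 5. The 10th percentile of enhancer −log10 q was 9.31 in members and 7.94 over all mESC enhancers. The 2 cuts differ, and the shares of the whole lists below them were not counted.

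The overlap rule itself places the RARA peak at the enhancer, so the nearness of both summits is a description. The RARA summit lay inside the enhancer in 541 of 673 members (80.4%, 77.2 to 83.2%). The share was 92.0% (84.3 to 96.0%) in the 87 bound RA-induced mESC enhancers and 79.2% (70.6 to 85.9%) in the 106 bound LIF-dependent ones. The median distance between both summits was 63 bp (interval 58 to 71; quartiles 27 and 141), in enhancers with a median width of 327 bp. It was 44 bp (35 to 59) in the bound RA-induced and 63.5 bp (47 to 93) in the bound LIF-dependent enhancers. In members, 72 summit pairs were within 10 bp, 283 within 50 bp and 565 within 200 bp. The enhancer summit was a median of 21.5 bp from the middle of its region, and the RARA summit 66.5 bp from that middle, about as far as from the enhancer summit. The RARA summit was at the lower coordinate in 365 members, at the higher in 306 and at the same base in 2.

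**Figure D2:**
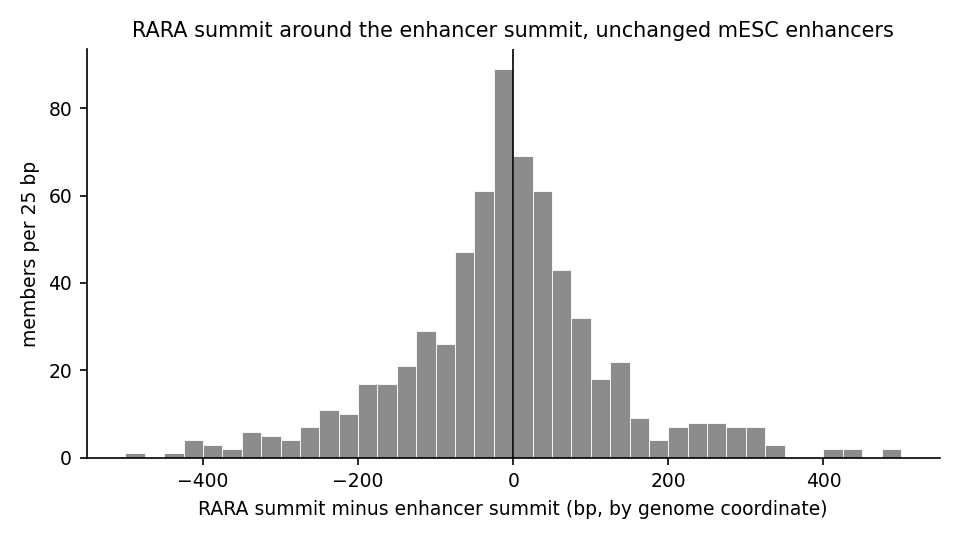
Distance from the enhancer summit to the RARA summit in 673 unchanged enhancers (horizontal, bp by genome coordinate, 25 bp per bar; vertical, number of regions). The highest bars are beside 0, and 565 of 673 regions lie within 200 bp; 8 regions beyond 500 bp are not drawn.

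Summit distance shortened as RARA enrichment rose. The median fell from 108 bp (86 to 131) in the weakest of the 5 groups by RARA fold to 65 bp in the middle and 38 bp (29 to 50) in the strongest. The RARA summit lay inside the enhancer in 71.9% of the weakest and 92.6% of the strongest group. Median enhancer width was 330 and 333 bp in these groups, while the RARA peaks had median widths of 234 and 475 bp. Fold and summit come from the same RARA peaks, and the part of peak strength in the placing of the summit was not tested. The distance was long at a few broad peaks. At chr17:36055849-36056216 the RARA peak spanned 2055 bp with 9 summits, of which the one of highest significance was 2042 bp from the enhancer summit. At chr19:8797618-8798017 the peak had 5 summits and the distance was 1121 bp. Peaks of several summits were not always distant: chr5:73293514-73293958 lay under 6 summits, the main one of 13.4-fold enrichment 6 bp away. In all, 133 members had an RARA peak of more than 1 summit. The 3 regions with broad peaks were singled out after their values were seen.

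**Figure D3:**
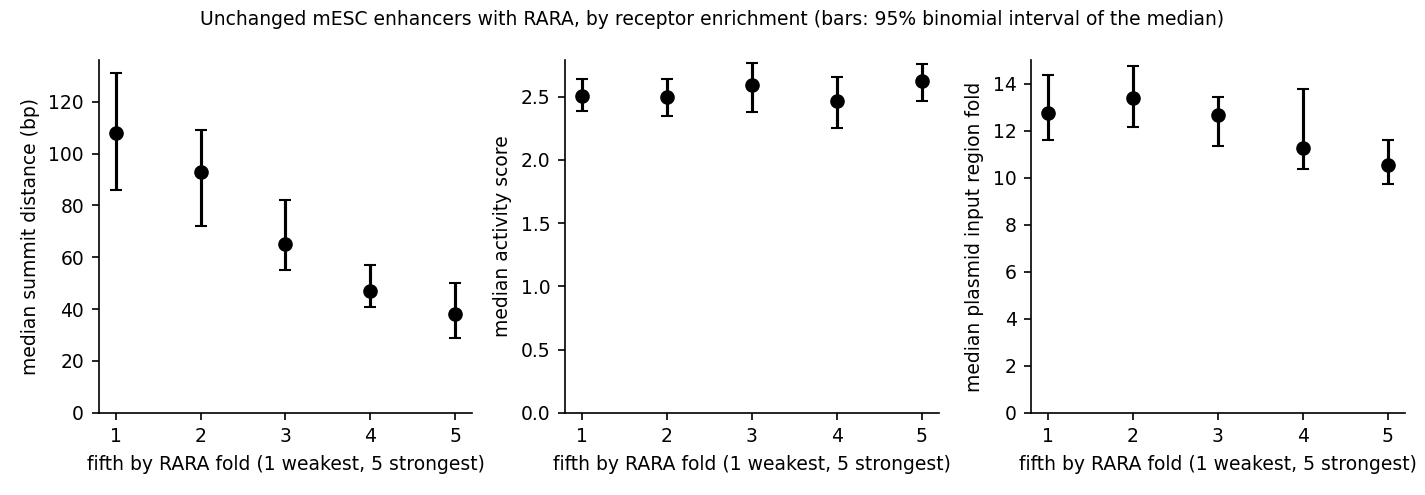
Medians of summit distance (left, bp), activity score (middle) and plasmid input region fold (right) in 5 groups of the 673 unchanged enhancers ordered by RARA fold, with 95% binomial intervals of the median. Summit distance falls from 108 to 38 bp, the score stays between 2.466 and 2.623, and input fold goes from 12.8 to 10.5.

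The overlap rule sat on a continuous range of overlaps. The RARA peak covered a median of 73.2% of the enhancer and at least 50% of it in 509 members, while 153 members lay wholly within their peak. Just inside the rule were chr11:19747948-19748247 with 3 bp of overlap, and chr11:95937020-95937531 and chr8:32260608-32260886 with 4 bp each. Scores of these 3 were 1.188, 2.195 and 2.588. Just outside was chr1:173200401-173200772, with 0 bp between its edge and an RARA peak and a score of 1.956. Next were chr18:90748911-90749227, 1 bp away with a score of 1.564, and 3 regions 2 bp away. These were chr16:31326918-31327151, chr9:61762305-61762565 and chr9:108241263-108241648, with scores of 1.434, 2.771 and 2.426. Of the 3206 unchanged enhancers without RARA, 80 (2.50%) were within 200 bp of an RARA peak and 202 (6.30%) within 1000 bp.

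Members were somewhat wider than unchanged enhancers without RARA and lay in wider stretches of cloned accessible DNA. Median enhancer width was 327 bp (321 to 334) against 304 bp (301 to 307). With all unchanged enhancers in 5 groups by width, of the narrowest (up to 249 bp) 11.0% had an RARA peak (8.95 to 13.3%), and of the widest (from 381 bp) 22.7% (19.9 to 25.8%). A wider region has more bases in which to meet a peak. With the same 200 bp around each enhancer summit in place of the whole region, a comparison chosen after the widths were seen, the shares were 10.8% and 20.1%. The part of width in these shares was not tested. The plasmid input regions under members had a median width of 552 bp (528 to 576), against 488.5 bp (481 to 501) under unbound ones, and more than 1 summit in 27.3% against 20.2%.

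Members were not more enriched in the plasmid library than unbound enhancers. The input fold had a median of 12.2 (11.6 to 12.8) under members and 12.9 (12.7 to 13.2) under unchanged enhancers without RARA. Of members 59.7% (56.0 to 63.4%) were in the top decile of all input regions, at or above 10.8-fold, as were 64.7% (63.0 to 66.4%) of the unbound. Over all 186959 input regions the median was 5.48. Among members the strongest group by RARA had the lowest median input fold, 10.5 (9.73 to 11.6), against 12.8 (11.6 to 14.4) in the weakest. The 5 members of highest input fold, 29.3 to 35.0, had RARA enrichments of 1.81 to 12.2. The strongest of these, chr5:86836309-86836654, had an RARA summit 10 bp from its own. Input enrichment also ran against the score, with a rho of -0.19 across members. Whether the plasmid input enters the score is not stated, and its part in this rho was not tested.

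**Figure D4:**
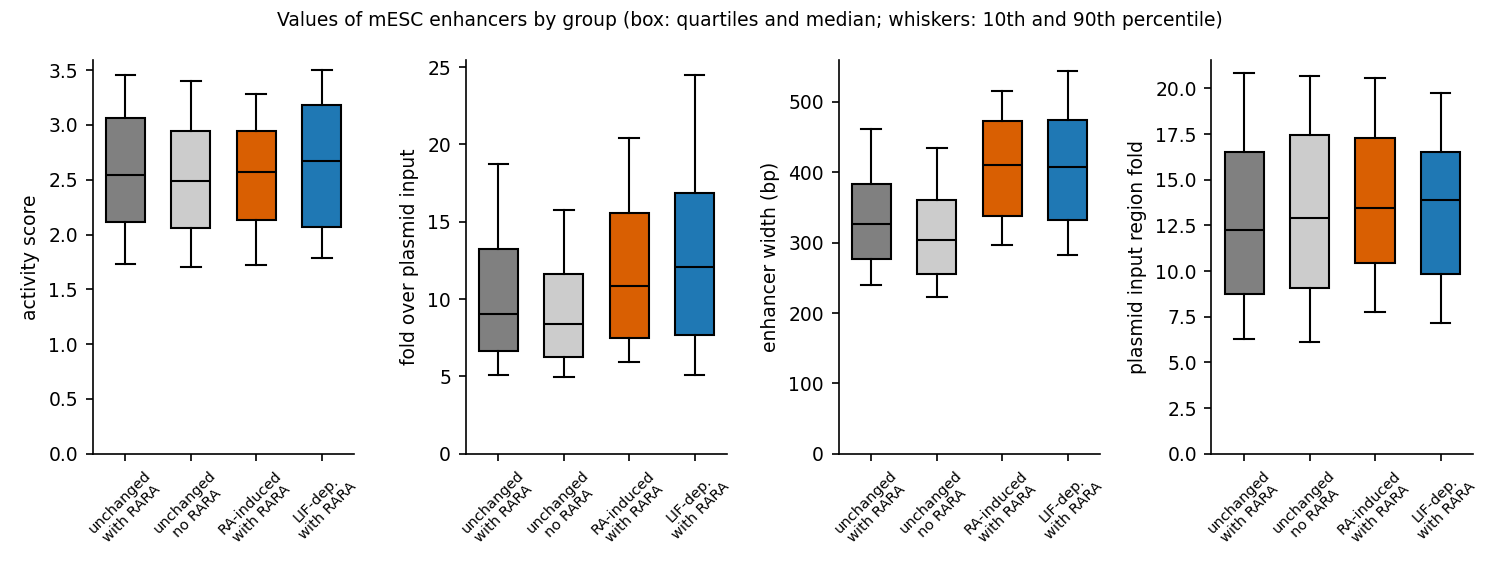
Activity score, fold over plasmid input, enhancer width (bp) and plasmid input region fold in 4 groups of mESC enhancers; boxes give quartiles and median, whiskers the 10th and 90th percentiles. Unchanged enhancers with RARA had a median width of 327 bp, between the unbound (304 bp) and the bound RA-induced (411 bp) or LIF-dependent (408 bp) ones.

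Compared with the bound enhancers that changed, members were narrower and had a lower median fold over the plasmid input. Medians of width were 327 bp in members, 411 bp (374 to 453) in bound RA-induced and 408 bp (378 to 439) in bound LIF-dependent mESC enhancers. Medians of fold over input were 9.02 (8.68 to 9.74), 10.9 (9.72 to 12.6) and 12.1 (9.89 to 13.5). The members' interval just reached that of the RA-induced. Medians of enhancer −log10 q were 28.7, 42.9 (36.5 to 52.6) and 48.9 (35.7 to 67.9). Scores were alike in location, at 2.547, 2.569 (2.353 to 2.769) and 2.669 (2.52 to 2.824). The pooled LIF samples gave these enhancer values and also entered both calls of change. The contrasts with changed enhancers are therefore descriptions. A wider enhancer has more bases in which to meet a changed region. The part of width, or of the enhancer call's own significance, in which regions were listed as changed was not tested.

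Members were spread over all 20 chromosomes with enhancers. Chromosomes 11, 2 and 4 held the most, with 66, 62 and 55. As a share of unchanged enhancers, autosomes ran from 12.4% on chromosome 3 (8.35 to 18.1%) to 21.8% on chromosome 2 (17.4 to 27.0%), and each interval reached or overlapped the autosomal value of 17.7%. The X chromosome was below all autosomes, with 6 of 102 (5.88%, 2.72 to 12.2%). RARA peaks per 1000 plasmid input regions numbered 40.4 on the X and 51.7 on the autosomes together, and chromosome 15 had 40.3. Per 1000 input regions the X held 2.33 members and the autosomes together 3.62, but chromosomes 12 (2.17) and 3 (2.30) held fewer than the X. The X was thus the lowest chromosome by share of unchanged enhancers and not by members per input region. The 6 on the X had RARA folds of 2.73 to 5.81 and scores of 2.12 to 3.279. The strongest, chrX:98591759-98592211, had a fold over input of 22.8 and summits 26 bp apart. Chromosome X was singled out after its value was seen.

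**Figure D5:**
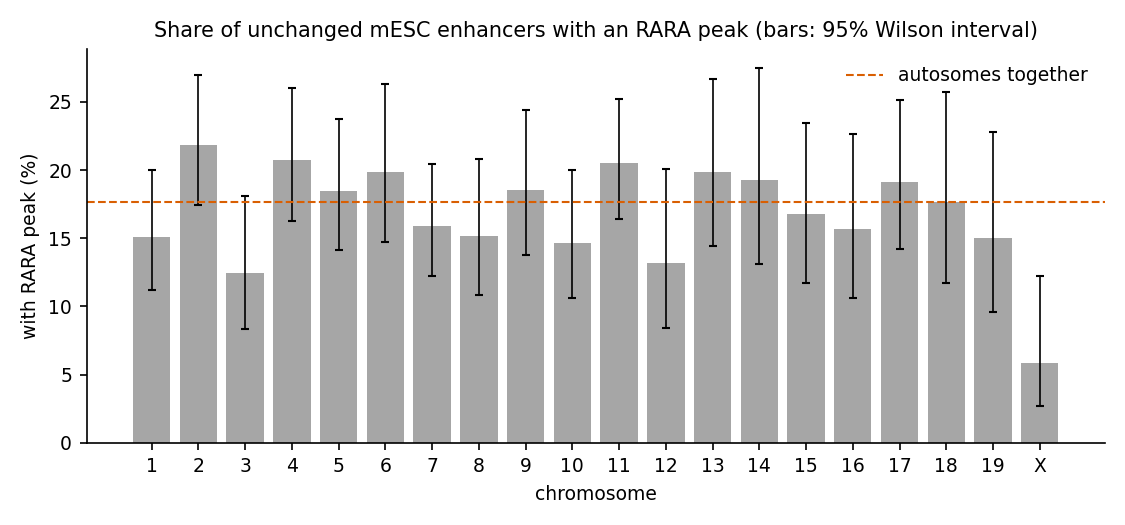
Share of unchanged mESC enhancers with an RARA peak (vertical, %) on each chromosome (horizontal), with 95% Wilson intervals; the dashed line is the autosomal share of 17.7%. The X, at 5.88%, is the lowest bar and its interval ends at 12.2%.

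Members were near other receptor-bound DNA more often than unbound enhancers were. Another RARA peak, apart from the member's own, lay within 5 kb of 198 members (29.4%, 26.1 to 33.0%), and any RARA peak within 5 kb of 382 of the 3206 unchanged enhancers without RARA (11.9%, 10.8 to 13.1%). The median gap was 23.8 kb against 56.4 kb. In the bound RA-induced enhancers it was 6.44 kb, and 44.8% (34.8 to 55.3%) had another RARA peak within 5 kb. In the bound LIF-dependent ones it was 12.48 kb, and 40.6% (31.7 to 50.1%) had one. Closeness to other RARA peaks was thus not particular to members, which had the lowest share of the 3 bound groups. Another member was within 12500 bp of 32 members (4.75%, 3.39 to 6.64%), and a member within 12500 bp of 65 unbound enhancers (2.03%, 1.59 to 2.58%). Any other mESC enhancer lay that near to 15.3% (12.8 to 18.2%) and 11.7% (10.7 to 12.9%), with intervals that just overlapped. Bound RA-induced and LIF-dependent enhancers had a member that near in 4.60% and 5.66%, and another mESC enhancer in 16.1% and 17.9%. Nearness to other enhancers was thus not particular to members either. Compared with unbound enhancers, members had more RARA peaks and somewhat more enhancers around them. The part of local enhancer density in the RARA counts was not tested.

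With gaps of up to 50 kb, 597 members stood alone, and the others formed 32 pairs and 4 triplets. The tightest pair, chr11:20039322-20039628 and chr11:20040271-20040590, was 642 bp apart, with scores of 3.019 and 2.302 and RARA folds of 3.35 and 4.00. A triplet within 17.2 kb of chromosome 11 ran against the order of receptor enrichment. Its region chr11:69377924-69378117 had the highest RARA fold, 6.94, and the lowest score, 2.186. The region chr11:69394875-69395125 had the lowest RARA fold, 1.89, and the highest score, 4.038. The pairs and triplets were singled out after their values were seen.

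Changed enhancers were seldom next to members. An RA-induced region lay within 5 kb of 5 members (0.743%, 0.318 to 1.73%) and of 15 unbound enhancers (0.468%, 0.284 to 0.771%). A LIF-dependent region lay that near to 8 members (1.19%, 0.604 to 2.33%) and 19 unbound ones (0.593%, 0.380 to 0.924%). Within 100 kb the shares for RA-induced regions were 6.84% and 6.46%, and for LIF-dependent regions 9.81% and 8.17%, with overlapping intervals. The member nearest to an RA-induced region, chr11:97523618-97524036, was 354 bp from it. Its own RARA peak had 4.36-fold enrichment, and the peak at its RA-induced neighbour 4.49-fold. At chr2:20590888-20591478 the gap was 587 bp. There the member's peak had 3.98-fold enrichment, while the RA-induced neighbour, with 7.22-fold reporter signal of RA over LIF, had an RARA peak of 28.0-fold. On chromosome 1 the member chr1:66746464-66746790 lay 442 bp from a LIF-dependent region that had no RARA peak. Its own RARA enrichment was 3.63-fold, with summits 5 bp apart. RARA peaks were mixed at the other near neighbours. RA-induced regions 3217 and 3515 bp from a member had no RARA peak, and the region at 4262 bp had a 5.97-fold peak. LIF-dependent regions 343 and 661 bp from a member had peaks of 6.17 and 4.11-fold. Those at 1064 and 1722 bp had none. These neighbours were chosen among the nearest to members after the values were seen.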

How the data were processed

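The submitters' processing notes name MACS2, Bowtie2, SAMtools, deepTools and UMI-tools with build mm9. No source used here gives their order or versions. The 5 deposited peak lists have no header. In each deposited list the columns hold a score (10 times −log10 q, cut), the fold enrichment (a ratio), −log10 p and −log10 q, and the summit. Peak names in the enhancer lists speak of merged LIF and RA samples, a paired-end mode (BAMPE) and a q cutoff. The lowest −log10 q in the mESC list is 1.38. No other MACS2 setting is given in the sources used here. The deposited table of scored enhancers gives 1 score per mESC enhancer on a scale not stated.

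Rows sharing a region were collapsed to that of highest −log10 q (4787 to 4674 mESC, 11366 to 9757 RARA, 195417 to 186959 input, 616 to 601 LIF-dependent, 386 to 382 RA-induced). Regions overlapped with at least 1 bp. Coordinates are mm9, counted from 1; distances between regions run edge to edge. The member count was checked with bedtools 2.31.1, and the overlap code was tested on simulated intervals. Computations used Python 3.11.15, pandas 2.3.3, NumPy 2.4.6, SciPy 1.17.1 and Matplotlib 3.10.9. Members and lists were chosen with earlier results of these data known. Regions were named by rule: the 10 of highest RARA fold, the 10 of highest score, the 5 of highest input fold, the 5 of lowest RARA fold, those beside the overlap limit and those sharing an RARA peak with a changed enhancer. The text describes some of each; no member met a second RARA peak and no peak held 2 members. Others are marked in the text. No significance test was run, as pooled lists hold no replicate values. Genes, annotations, sequences and motifs were not analysed here, because the reference tables were of GRCm38 and coordinates were not converted.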

Additional observations from a re-analysis of the deposited data

How the results depend on the processing

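Of 50 values recomputed under alternatives, 36 stayed within the interval of the reported value (for counts, within 1.5 times) and 14 did not. Requiring RARA to cover 50% of the enhancer gave a median RARA fold of 3.63 and a summit distance of 50 bp; requiring the RARA summit inside the enhancer gave a distance of 48 bp, which the requirement itself shortens. With the stronger 50% of RARA peaks by q there were 420 members, with a median RARA fold of 4.17, a summit distance of 50.5 bp and 2.86% with another member within 12500 bp. With the stronger 50% of mESC enhancers there were 377 members, with a median score of 2.868, a fold over input of 12.6, an input fold of 13.7 and 1.59% with a near member; both selections leave fewer members to be near. Another member lay within 5 kb of 2.67% and within 50 kb of 11.3%. The following 2 alternatives were chosen after seeing the data: RARA peaks of 1 summit (distance 59 bp), and a peak in the 200 bases around the enhancer summit (638 members). The nearest of all summits gave 58 bp.

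No paired analysis was possible because the deposited lists pool the replicates and hold no value per replicate; for the same reason no replicate was left out. The motif window was not run for lack of an mm9 genome, and averaging the score over rows was not run because the score table has 1 value per region. Depth behind single regions is unknown, which limits all comparisons at weak peaks.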
